A study of Mus musculus with 18 samples.

Results

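CLK (CLOCK) ChIP on sonicated liver chromatin at ZT22 was compared with the input of the same livers, to measure how much CLK signal remained over background at the known CLK:BMAL1 sites at this time. The comparison uses 6 of the 18 libraries of the series: 3 CLK ChIP libraries and the 3 input libraries with the same mouse numbers, 28, 29 and 30. They were chosen by their titles, and no measured value was used to choose them. All came from wild-type adult C57BL/6 mice (strain, 3 to 6 months old) kept in 12 h of light and 12 h of dark, with ZT counted from lights on. Nuclei were fixed with 1% formaldehyde for 10 min, and the chromatin was precipitated with a goat polyclonal antibody against CLK, while input went without an antibody. Whole liver was used, so a change in the cells that carry CLK and a change in CLK per cell cannot be told apart. No source used here gives a library without CLK or with a control antibody, so input is the only background. The 6 sonicated libraries at ZT06, made in the same way from livers with the same 3 mouse numbers, serve for comparison.

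CLK and BMAL1 form a heterodimer that binds E-box sequences and activates the genes of the circadian clock, among them Per and Cry, whose proteins in turn repress the pair. In mouse liver this binding follows a daily rhythm, with much of it in the light phase and little late in the night. Input is fixed and sheared chromatin without immunoprecipitation, and it shows how readily a region is recovered and sequenced whether or not a factor is bound there.

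Each deposited profile is the mean signal over a set of sites at 299 positions across the 3 kb around the site midpoint, once for 3216 sites and once for the top 400 of them. The table of sites lists 3217, with a median peak width of 309 bp. Of these, 583 (18.1%) are in the TSS class and 1412 (43.9%) in the intron class. The windows used below are the centre (21 positions up to 100 bp from the midpoint), the shoulders from 150 to 300 bp (32 positions), the middle range between the shoulders and 1000 bp (138 positions), and the flanks from 1000 bp outwards (100 positions). Each library was divided by the mean of its own flanks, because no source used here says how the libraries were scaled to each other. A value over input is the log2 ratio to the flanks in ChIP minus the same in the input of that liver.

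The 3 ChIP libraries at ZT22 differed strongly in depth. Within a library, the deposited means multiplied by the number of sites were whole multiples of a smallest step, in 99.7 to 100% of the values at the top sites and 96.3 to 100% over all sites, within rounding. This step was 8.90 in the ChIP library of mouse 30, 3.08 in mouse 28 and 0.683 in mouse 29. If a step stands for the same amount of sequence in each library, mouse 28 was sequenced 2.89 times and mouse 29 13.0 times as deeply as mouse 30. The 3 inputs at ZT22 were 9.47, 15.7 and 10.2 times as deep as that library, and the 3 ChIP libraries at ZT06 were 2.29 to 3.11 times as deep. The ChIP library of mouse 30 was thus the shallowest of the 12 sonicated libraries. That of mouse 29 was the only ChIP library among these 6 with a depth in the range of the inputs, which was 9.37 to 15.7 over both times. The ratio of its centre to its flanks also lay among those of the ZT22 inputs, at 1.20 within 1.19 to 1.28 over all sites and at 1.28 within 1.21 to 1.39 at the top sites. A ChIP library with little CLK signal and an input library under a ChIP label cannot be told apart from the deposited means, so each value of mouse 29 rests on its label. The central and shoulder means and the limma counts are given with and without the libraries of mouse 29 and of mouse 30.

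Over all 3216 sites, CLK ChIP at ZT22 stood well above input in mouse 30 only. The ratio of centre to flanks in ChIP was highest in mouse 30 at 1.75, followed by 1.33 in mouse 28 and 1.20 in mouse 29. In the inputs it was 1.22 for mouse 30, 1.28 for mouse 28 and 1.19 for mouse 29. The inputs therefore carried a central rise of their own, and in mice 28 and 29 it was nearly as high as that of the ChIP. At the midpoint the deposited signal was 3.20, 3.26 and 5.10 in ChIP and 4.19, 3.25 and 3.50 in input, in the order of mouse numbers. The highest ChIP value of mouse 30 lay exactly at the midpoint. The centre over input was 0.51 on the log2 scale in mouse 30 (1.43-fold), 0.05 in mouse 28 (1.03-fold) and 0.01 in mouse 29 (1.01-fold). The mean was 0.19 ± 0.16 (SE, n = 3 livers). Here and below, the SE of a mean over input at ZT22 is taken over the differences within livers. The permutation tests of ChIP against input ignore this pairing. ChIP exceeded its own input in 3 of 3 livers, but the ratios of the ChIP and input groups overlapped (exact two-sided permutation test, p = 0.3, adjusted p = 0.4 in a family of 8 window tests; 3 against 3 cannot give less than 0.1). Without mouse 30 the mean was 0.03, and without mouse 29 it was 0.28. A mean weighted by the depth of the ChIP libraries was 0.05. This weighting counts mouse 29 most, with a depth 13.0 times that of mouse 30, so the weighted mean also rests on the label of mouse 29.

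**Figure D1:**
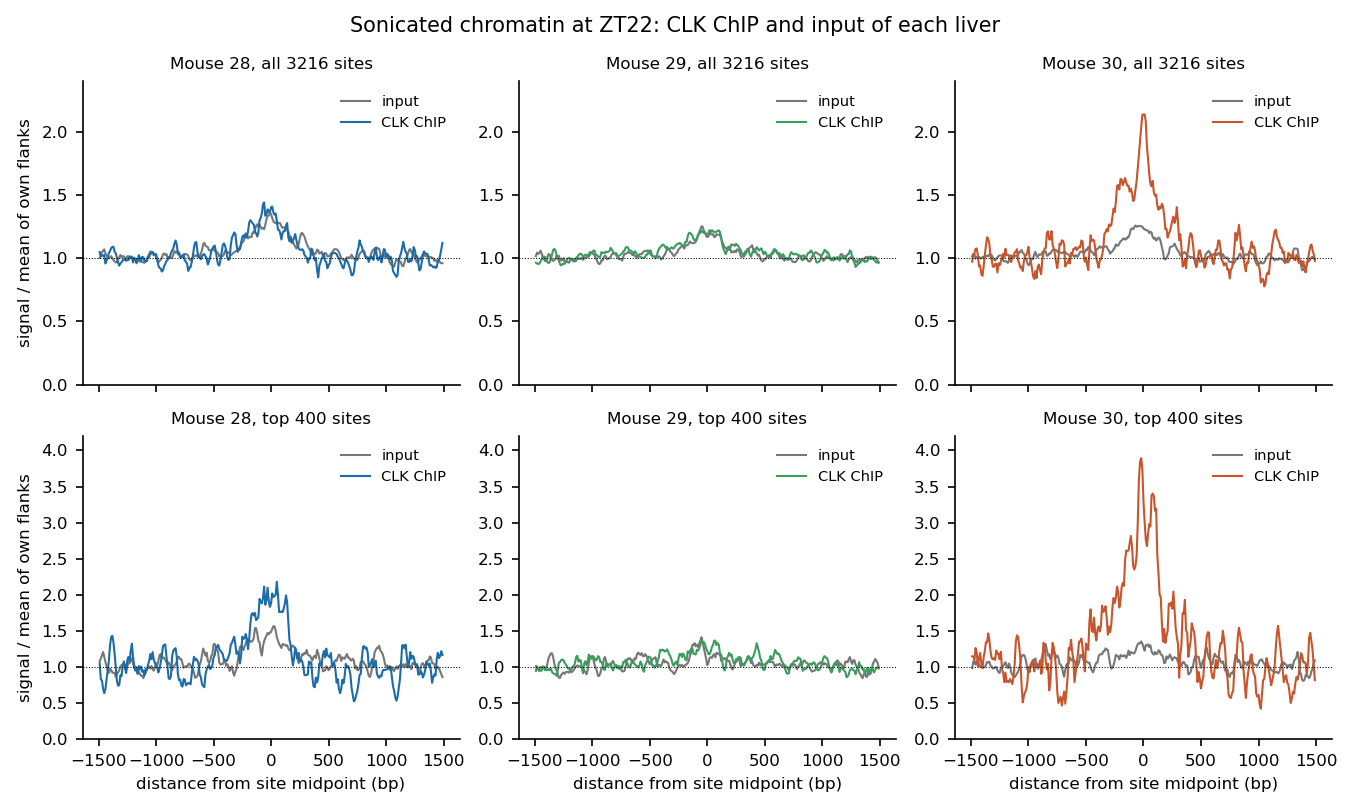
Signal of CLK ChIP (colour) and input (grey) from sonicated chromatin at ZT22, divided by the mean of the library's own flanks, against the distance from the site midpoint in bp. Columns are mice 28, 29 and 30, the upper row is the mean over 3216 sites and the lower row that over the top 400. Over all sites the ChIP line leaves the input line clearly in mouse 30, where the centre is at 1.75 against 1.22. At the top sites it also does so in mouse 28, at 1.93 against 1.39.

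At the top 400 sites the centre rose over input in mouse 30 and, less far, in mouse 28. The ratio of centre to flanks was 1.93 in ChIP and 1.39 in input in mouse 28. It was 1.28 and 1.21 in mouse 29, and 3.06 and 1.26 in mouse 30. Mouse 30 thus had a centre 2.43-fold over input, mouse 28 one of 1.39-fold and mouse 29 one of 1.06-fold. The mean on the log2 scale was 0.61 ± 0.35 (SE, n = 3 livers; exact two-sided permutation test without pairing, p = 0.2, adjusted p = 0.4). The ChIP value of mouse 29 lay within the range of the inputs, whereas those of the other mice lay above it. Without mouse 30 the mean was 0.28, and without mouse 29 it was 0.88. Weighted by depth, with mouse 29 again counting most, it was 0.22.

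The remaining 2816 sites were obtained by subtracting the top sites from the sum over all sites. There the centre over input was -0.05 on the log2 scale in mouse 28, 0.00 in mouse 29 and 0.34 in mouse 30. The mean there was 0.10 ± 0.12 (SE, n = 3). The slight excess of mouse 28 over all sites was therefore held by the top sites, while that of mouse 30 was present in both groups of sites. In mouse 30 the top sites, 12.4% of all sites, held 45.5% of the central excess over input. In mice 28 and 29 the share was 179% and 88.4%, of an excess over all sites of only 3.22% and 0.865%. In mouse 28 the remaining sites lay below input. In the 3 livers at ZT06 they held 35.0, 36.7 and 34.3%. Whether mouse 30 differs from ZT06 in this share was not tested.

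Away from the centre, the excess of mouse 30 reached across the shoulders. Over all sites mouse 30 had shoulders 1.28-fold over input, mouse 29 had 1.03-fold and mouse 28 had 1.00-fold. For the top sites the values were 1.62-fold, 1.08-fold and 1.03-fold in the same order. The mean log2 value was 0.14 ± 0.11 over all sites (exact permutation test, p = 0.2) and 0.28 ± 0.21 at the top sites (p = 0.3, exact; adjusted p = 0.4 in both; SE, n = 3). Without mouse 30 these means were 0.03 and 0.07, and without mouse 29 they were 0.18 and 0.37. Mouse 29 had a larger value in the shoulders than in the centre in both sets, unlike mouse 30. In the middle range the 3 livers lay between -0.03 and 0.03 over all sites and between -0.11 and 0.08 at the top sites. Their means were 0.00 in both sets (exact permutation test, p = 0.9 and p = 1).

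In steps of 100 bp from the midpoint, the excess of mouse 30 over all sites went from 0.50 within 100 bp to 0.40 and 0.31 in the next steps, and to 0.00 between 300 and 400 bp. At ZT06 the mean of the livers over the same steps was 1.31, 1.01 and 0.61, and still 0.32 between 300 and 400 bp. The excess of mouse 30 at the top sites was 1.26, 0.86 and 0.67, then 0.46 between 300 and 400 bp and 0.30 between 400 and 500 bp. Mouse 28 had 0.47 within 100 bp of the top sites, 0.20 in the next step and -0.02 in the third. In mouse 29 no step within 500 bp exceeded 0.06 over all sites or 0.13 at the top sites.

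The excess over input, smoothed over 9 positions, was highest in mouse 30 at the midpoint over all sites, at 61.1% above input, and the stretch above 50% of that height was 150 bp wide. At ZT06 the stretch was 400, 390 and 370 bp wide, with heights of 149 to 169%. A stretch ends at the first smoothed value under its 50% height on each side. A local dip in the shallow library of mouse 30 could therefore shorten it. The shoulders of mouse 30 over all sites were still 1.28-fold over input, so its excess did not end with this stretch. Whether the widths differ between the times was not tested. The widths at the top sites were 350 bp in mouse 30 and 280 bp in mouse 28 at ZT22, against 320 to 440 bp at ZT06. In mouse 29 in both sets, and in mouse 28 over all sites, the highest smoothed excess within 500 bp lay 310 bp or more from the midpoint, so a width of a central peak has no meaning there.

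**Figure D2:**
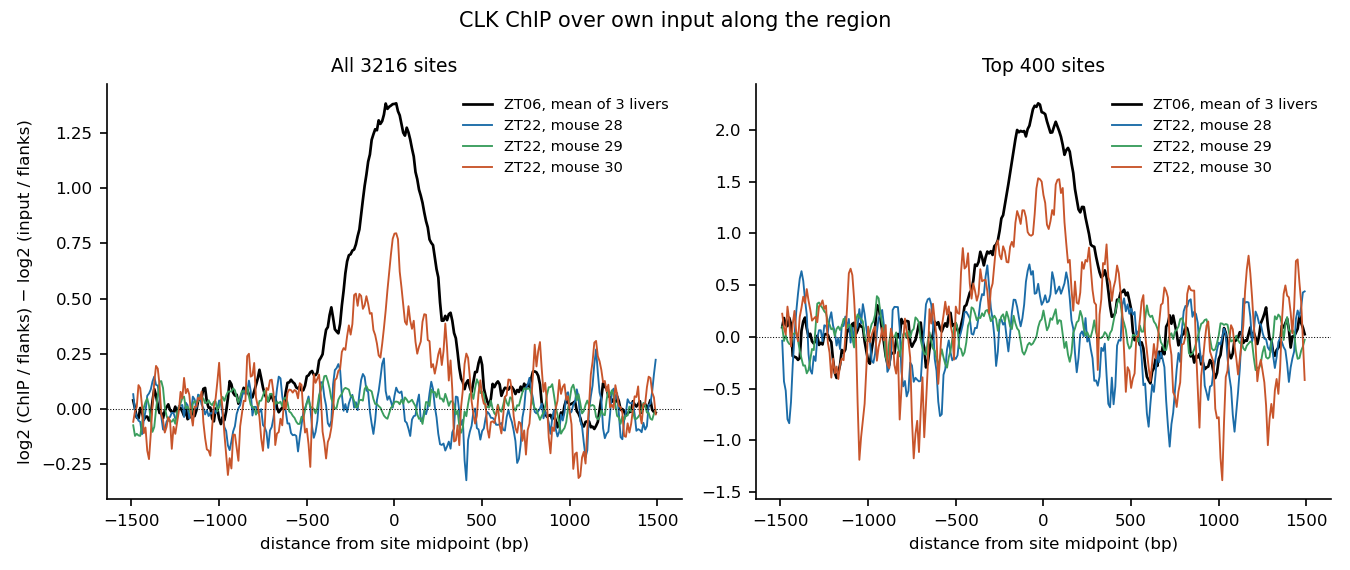
Log2 ratio of ChIP to its flanks minus that of the own input, against the distance from the site midpoint in bp, for each liver at ZT22 (colours) and for the mean of the 3 livers at ZT06 (black). Mouse 30 peaks at 0.80 over all sites and at 1.53 at the top sites, below ZT06 in both panels. Mouse 29 has no central peak, and over the whole region it lies between -0.12 and 0.15 over all sites and between -0.35 and 0.39 at the top sites.

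Position by position, the test found no position with ChIP above or below input. With limma on the values relative to the flanks, 0 of 299 positions (0%) passed an adjusted p under 0.05, over all sites and at the top sites. The smallest adjusted p of limma was 0.78 over all sites and 0.57 at the top sites. An unadjusted p under 0.05 was reached at 7 positions (2.34%) over all sites, none of them central. For the top sites it was reached at 26 positions (8.70%), of which 17 were among the 21 central ones. The median SE of limma at the centre was 0.11 over all sites and 0.26 at the top sites, above that in the flanks, 0.05 and 0.18. Without mouse 29, 21 positions at the top sites passed the test with limma. Of these, 20 were higher in ChIP, 18 of them central, and 1 was lower. Over all sites 0 passed without mouse 29, with 6.69% at an unadjusted p under 0.05, and 0 passed in either set without mouse 28 or without mouse 30. The share of positions that pass describes an extent along the region, since neighbouring positions share sequence.

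The sign of the difference was also counted. Over all sites, ChIP lay above its own input in all 3 livers at 64 of 299 positions (21.4%) and below it in all 3 at 24 (8.03%). Positions above input in all 3 livers were 11 of 21 in the centre, 18 of 32 in the shoulders, 16 of 138 in the middle range and 19 of 100 in the flanks. The count at the top sites was 61 of 299 (20.4%), with 15 of 21 in the centre, 17 of 32 in the shoulders, 18 of 138 in the middle range and 9 of 100 in the flanks. Below input in all 3 livers were 25 positions (8.36%) at the top sites. In neither set was any position of the centre or the shoulders below input in all 3 livers. Mouse 30 by itself decided this, because its ChIP exceeded input without a gap out to at least 300 bp on each side of the midpoint. The absence of such positions therefore says nothing about mice 28 and 29. In mice 28 and 29 alone, the centre counts were again 11 and 15 of 21, beside 94 (31.4%) and 86 (28.8%) of all positions. Of the 32 shoulder positions, 18 over all sites and 17 at the top sites were above input in both these mice. Below input in both were 3 and 0 shoulder positions, beside 63 (21.1%) and 58 (19.4%) of all positions. The unbroken stretch around the midpoint with all 3 livers above input began at -20 bp and ended at 50 bp for all sites, and at -40 and 110 bp for the top sites. An equally long stretch at the top sites, 160 bp, lay off the centre, from -430 to -280 bp. At ZT06 the stretch around the midpoint had its ends at -560 and 390 bp for all sites, and at -460 and 380 bp for the top sites.

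A stricter count asks that the lowest of the 3 ChIP libraries lies above the highest of the 3 inputs. This held at 23 of 299 positions (7.69%) over all sites, 8 of them in the shoulders and 0 in the centre. It held at 14 positions (4.68%) at the top sites, 3 of them in the centre. The reverse, all ChIP libraries below all inputs, held at 7 positions (2.34%) over all sites and at 16 (5.35%) at the top sites. There the positions with ChIP above all inputs were no more frequent than those with ChIP below. With labels given at random, a position separates the groups in either direction with a probability of 0.1. The counts of both sets are therefore only described and not read as a result.

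The error within a library was read from 10 windows of the width of the centre, laid end to end from 450 bp outwards on both sides. The outer windows lie partly or wholly in the flanks that each library was divided by. This draws their values towards 0, so the ranges below may understate the error. Over all sites these off-centre windows of mouse 28 ranged from -0.06 to 0.01 over input, and its centre at 0.05 lay above all 10. In mouse 29 they ranged from -0.02 to 0.05, and the centre at 0.01 lay above 5 of the 10. In mouse 30 they ranged from -0.10 to 0.09, with the centre at 0.51. The ranges at the top sites were -0.21 to 0.07 in mouse 28, -0.13 to 0.13 in mouse 29 and -0.40 to 0.22 in mouse 30. The centres there were 0.47, 0.08 and 1.28. In mice 28 and 30 the central value at the top sites therefore exceeded every off-centre window of the same library, and in mouse 29 it exceeded 7 of 10. The SD of the off-centre windows over all sites was 0.02 in mice 28 and 29 and 0.05 in mouse 30. These ranges describe the spread along a library and do not replace the spread between livers.

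**Figure D3:**
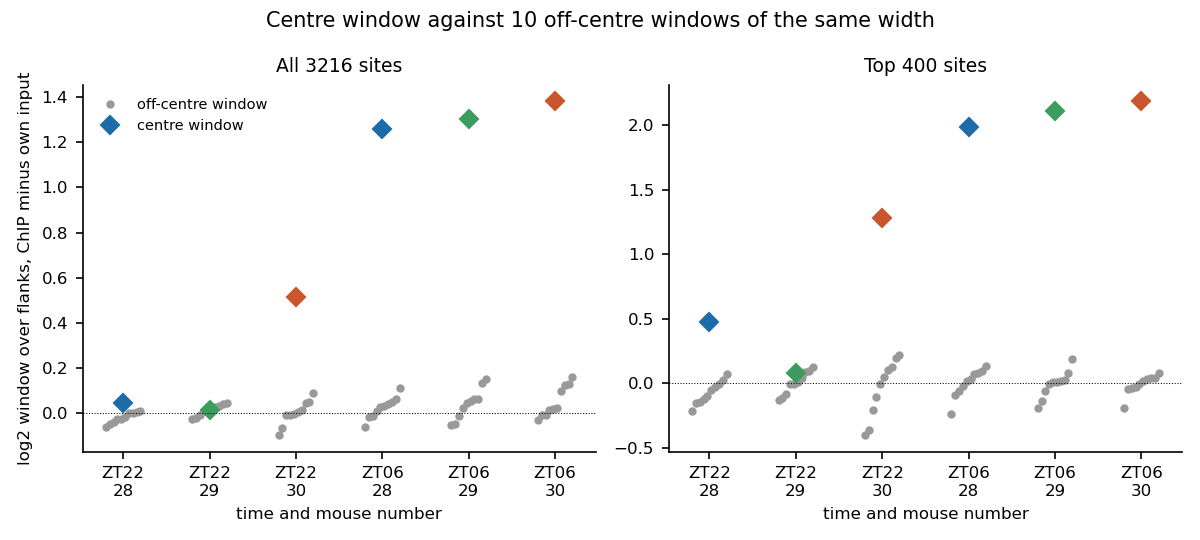
Log2 value of a window over the flanks, ChIP minus own input, for each liver at ZT22 and ZT06. Diamonds are the centre window and grey points the 10 off-centre windows of equal width, in ascending order. At ZT22 the diamond of mouse 29 sits among its off-centre windows in both panels, and that of mouse 30 lies above all of its own. At ZT06 all diamonds lie far above, between 1.26 and 1.38 over all sites.

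The size of the central signal ran in the reverse order of depth at ZT22. The shallowest ChIP library, mouse 30, had the highest ratio of centre to flanks, and the deepest, mouse 29, the lowest, in both sets of sites. The same order held in the ZT06 ChIP libraries over all sites, where ratios of 3.31, 3.10 and 3.05 went with depths of 2.29, 2.47 and 3.11 times the shallowest. At the top sites it did not hold at ZT06, where mouse 28 at a depth of 2.47 had a ratio of 5.48 and mouse 29 at 3.11 had 5.71. In both sets of sites the order also held in the 3 inputs at ZT22 but not in those at ZT06. With 3 libraries a group, no correlation was computed. The ZT22 ChIP library of mouse 28 had a depth of 2.89, within the 2.29 to 3.11 of the ZT06 ChIP libraries, and its ratio over all sites was 1.33 beside their 3.05 to 3.31. The flanks of the ZT22 ChIP libraries varied between positions over all sites by a coefficient of variation of 3.20% in mouse 29, 5.25% in mouse 28 and 8.70% in mouse 30. Mouse 30 had the largest excess and the largest spread of off-centre windows, while that spread was about the same in mice 28 and 29. The part of depth in these differences was not tested.

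The spread along the flanks was larger than independent counts of steps would give. Among the 24 sonicated profiles, the variance of the flank steps divided by their mean was 5.78 to 15.1, with a median of 8.37, whereas independent counts have a ratio near 1. Neighbouring positions were correlated, with a median autocorrelation of 0.82 at 10 bp, 0.31 at 30 bp and 0.06 at 40 bp, and -0.15 at 50 bp. A step is therefore not an independent read, and an interval that treats steps as Poisson counts would be too narrow. For this reason the off-centre windows were used for the error within a library.

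**Figure D4:**
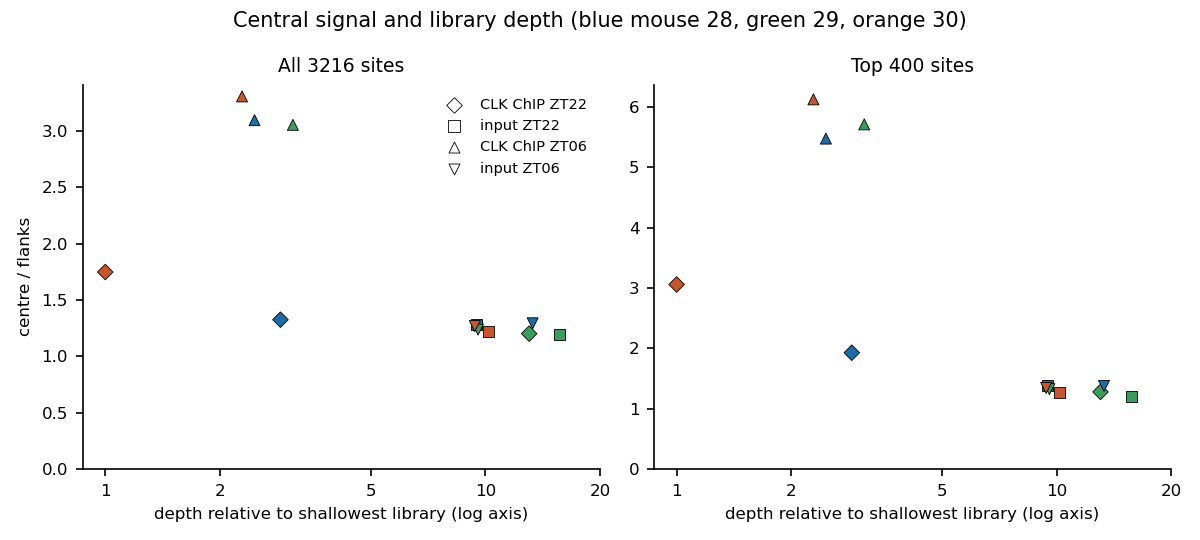
Ratio of centre to flanks against depth relative to the shallowest library (log axis), for the 12 sonicated libraries, with symbols for assay and time and colours for the mouse number. The 3 ZT06 ChIP libraries and the ZT22 ChIP library of mouse 28 have similar depths, 2.29 to 3.11, and ratios of 3.05 to 3.31 against 1.33 over all sites. The ZT22 ChIP library of mouse 29 lies among the inputs.

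Compared with ZT06, the central excess over input at ZT22 was lower in all 3 livers, and least so in mouse 30. At ZT06 the centre was 2.39-fold, 2.47-fold and 2.61-fold over input in mice 28, 29 and 30 over all sites, and 3.98-fold, 4.31-fold and 4.56-fold at the top sites. Taking the excess at ZT06, averaged over its 3 livers, as 100%, the excess at ZT22 over all sites came to 28.7% for mouse 30, 2.16% for mouse 28 and 0.581% for mouse 29. For the top sites it was 43.4%, 11.8% and 1.80%, in the same order. The ZT06 livers themselves lay between 93.5 and 108% over all sites. On the log2 scale the centre over input was lower at ZT22 by -1.12 ± 0.17 over all sites and by -1.48 ± 0.36 at the top sites (SE, n = 3 livers a time). Without the ZT22 libraries of mouse 30 these values were -1.29 and -1.82, and without those of mouse 29 they were -1.04 and -1.22. Every ZT22 liver lay below every ZT06 liver over all sites as well as at the top sites (p = 0.1 by an exact two-sided permutation test, which is the least this design can give, adjusted p = 0.4). Mouse numbers do not pair the times here, since no source states that a number is the same animal at ZT06 and ZT22.

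The difference between the times was also tested at each position, as the interaction of assay and time in limma over the 12 sonicated libraries. This fit assumes the same spread in all groups. Over all sites, however, the SD of the centre over input was 0.28 at ZT22 and 0.06 at ZT06. The fit pools the spread of unlike groups as if they were alike, so the calls may be too many. Over all sites 81 of 299 positions (27.1%) passed, of which 80 (26.8%) had less ChIP over input at ZT22 and 1 (0.334%) more. All 21 central positions and 31 of the 32 shoulder positions were among them, and the unbroken stretch ran from -310 to 280 bp. At the top sites 55 positions (18.4%) passed, all lower at ZT22, with all 21 central and 24 shoulder positions, in a stretch from -240 to 250 bp. Without the ZT22 libraries of mouse 30 the counts over all sites and at the top sites were 86 and 70, and without those of mouse 29 they were 80 and 57. Without mouse 28 at both times 7 positions (2.34%) passed at the top sites and 57 over all sites.

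The form of the residual signal was compared with that at ZT06 by the correlation between profiles over input, across the 299 positions. Pearson's r of the ZT22 livers with the ZT06 mean over all sites reached 0.77 in mouse 30, against 0.19 in mouse 28 and 0.12 in mouse 29. At the top sites mouse 30 had 0.74, mouse 28 had 0.46 and mouse 29 had 0.15. Positions share sequence with their neighbours and are no replicates, so these values only describe the profiles. The excess of mouse 30 lay on both sides of the midpoint: within 100 bp the mean was 0.45 on the left and 0.52 on the right over all sites, and 1.23 and 1.29 at the top sites. Mouse 28 at the top sites had 0.52 and 0.44.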

How the data were processed

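The authors deposited mean profiles in a unit of signal, 1 row per library and site set, and a table of site coordinates. CASAVA 1.7, Bowtie and mm9 are named in the submitters' processing notes. Read extension, filtering and scaling between libraries are not given in the sources used here. Of 52 profile rows, 16 from 8 library names that match no sample were not used. Positions were taken as 10 bp apart and centred, which no source states.

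Groups came from sample titles. From the deposited signal, log2(signal / mean of the own flanks) was computed without a pseudocount (Python 3.11.15, numpy 2.4.6). Positions were tested with limma 3.58.1 (R 4.3.3) on the 3 ChIP and 3 input libraries without a block, with Benjamini-Hochberg adjustment over 299 positions, an adjusted p under 0.05 counting as called. Windows were tested with exact permutation tests. The limma code was tested on simulated data. Named positions were, by rule, the midpoint, extremes, windows and ends of stretches. The members, windows and tests were chosen with earlier results of these data known, and the off-centre windows, the remaining sites and the interaction with time were added after the profiles had been seen. The design assumed that each library has its own flanks as reference, so a CLK signal that reaches beyond 1000 bp would be understated.

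ChIP and input of a number come from the same mouse, per the series design text. Deviations of ChIP and own input from their group means at ZT22 correlated over all sites with r = -0.20, 0.37 and -0.11 in mice 28, 29 and 30. For the top sites r was -0.18, 0.21 and -0.16. At ZT06 it was 0.03, 0.04 and 0.05 over all sites, and 0.12, 0.45 and 0.24 at the top sites. The own input gave the highest r for each mouse at ZT06, but only for mouse 29 at ZT22, in both sets. Alternatives covered flank and centre limits, pseudocount, scaling, depth weights, the block for the liver and leaving out each mouse.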

Additional observations from a re-analysis of the deposited data

Results flagged for a closer look

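The central rise of ChIP over input differed between ZT22 and ZT06 by limma's test of the interaction of assay and time, an analysis added after the profiles had been seen. It passed at 81 positions over all sites and at 55 positions at the top sites, out of 299. All but 1 of these positions, over all sites, were lower at ZT22. The fit assumed the same spread at both times, although the livers at ZT22 differed more. The exact two-sided permutation test of the centre gave p = 0.1 and an adjusted p = 0.4 in both sets. Groups of 3 libraries were too small for a test of outlying samples, so mouse 30 at ZT22 is described by its values only.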

How the results depend on the processing

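Of 130 alternative values for 12 results, 122 kept their direction or, for limma, a similar number of called positions. For the 8 window results this could concern direction only. Their exact p cannot go under 0.1, so a threshold of 0.05 was out of reach. A mean that kept its direction could still shrink. Over all sites the central mean at ZT22 went from 0.19 to 0.03 without mouse 30. It went to 0.05 when weighted by depth, a weighting in which mouse 29 counts most. The middle-range means, close to 0, turned sign in 6 alternatives. With log2(signal + 1) the mean was -2.9e-05 over all sites, and with flanks from 1200 bp it was -0.0075 at the top sites. Without mouse 29 the means over all sites and at the top sites were -0.011 and -0.015, and without mouse 30 they were -0.0034 and -0.036. Without mouse 28 they kept their sign, at 0.019 and 0.057. The cause was not tested. For ChIP against input at ZT22 at the top sites, limma called 0 to 21 positions when 1 mouse was left out, and 0 in every other alternative. For the difference between the times at the top sites it called 7 to 70. With a replicate block for the liver, limma again called 0 positions at ZT22 in both sets, with 5 and 36 positions at an unadjusted p under 0.05, and the difference between the times was called at 77 and 59 positions. The blocked sign-flip test left the central means at 0.19 and 0.61 (exact, p = 0.25, the smallest for 3 pairs). Without scaling by the flanks, 124 positions over all sites had an unadjusted p under 0.05 in limma, in either direction, and 0 were called. This count includes differences in scale between libraries. The deposited flank signal over all sites was lower in ChIP, at 2.28, 2.73 and 2.38, than in the own input, at 3.11, 2.78 and 2.84, in the order of mouse numbers. The off-centre windows of mouse 30, the shallowest library, spanned -0.40 to 0.22 at the top sites, and the part of depth in this spread was not tested. No alternative was left out.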
